A study of Rattus norvegicus with 9 samples.

Results

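The genes described here encode the proteins of the cytosolic ribosome in pancreatic islets of diabetic rats. They were chosen by name alone: a gene was a member if its symbol in the array annotation began with Rpl or Rps and a digit, with the S6 kinases (Rps6k) and names of pseudogenes (ending in -ps and digits) left out. The rule found 46 genes on 51 probe sets, out of 14217 genes with 1 symbol, and where a gene had several probe sets the one brightest on average over the arrays stood for it. Of the 46 genes, 28 belong to the large subunit and 12 to the small subunit, and 6 are paralogs, which are copies of another ribosomal protein gene. In all, 41 members passed a filter that left out the dimmest 33.3% of probe sets: 26 of the large subunit, 11 of the small subunit and 4 paralogs. The members that did not pass were Rpl28, Rpl30, Rps13, Rpl3l and Rpl39l1. Mean log2 values of these dim probe sets ran from 3.49 to 4.87, and they were not tested.

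Islet RNA was measured on 9 Affymetrix expression arrays, 3 for each of 3 groups. All animals were male Zucker Diabetic Fatty rats (fa/fa), which lack a working leptin receptor and become obese and diabetic, and all ate the Purina 5008 diet. The treated group ate, from week 5, food mixed with powdered Avandia tablets at 3 mg of rosiglitazone per kg of body weight, and was sampled at 9 weeks of age. Rosiglitazone activates the nuclear receptor PPAR gamma and makes tissues more sensitive to insulin. In the withdrawal group the same drug began at week 5 and stopped at week 9, and islets were taken at 11 weeks of age, after 2 weeks without it. The untreated group never received it and was sampled at 13 weeks. Age and treatment thus differed together between all groups, and their effects cannot be told apart. The labels call the arrays of a group biological replicates, each from 20 to 30 mg of islets, and 24 animals were randomised in the study. They do not say which animals each array came from.

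A cytosolic ribosome is built from a small subunit, which reads the messenger RNA, and a large subunit, which joins amino acids into protein. Each subunit is a scaffold of ribosomal RNA that carries one copy of nearly every ribosomal protein, so cells make these proteins in matched amounts. Their messenger RNAs are among the most abundant in any cell, and most start with a run of pyrimidines at the 5′ end (the TOP motif), through which the kinase mTOR and the RNA-binding protein LARP1 adjust their translation. Beta cells make very large amounts of insulin and depend on a high capacity for protein synthesis.

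The pyrimidine run could be looked for in the RefSeq promoters of assembly GRCr8, which reach from 250 bases before to 50 bases after each annotated start. Promoters were found for 41 of the 46 members, 39 by gene number and 2 by symbol. The words searched were CTTTC with its variant CTTTT, and also CTTCC with its variant CTTCT, on the gene's strand, beginning within 5 bases of the annotated start on either side. Such a word was present in 16 of the 41 member promoters, or 39.0%, and in 6.8% of all 27457 promoters in that table. Below, 7 members with a word are shown over the 15 bases before the start and the first 15 transcribed bases, with the pyrimidine run in capitals from the word onward. They were picked as examples of the run, and most member promoters held no such word at the annotated start.

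Rpl12: ggagcaacatccgtCTTTTCggctttcggt
Rpl19: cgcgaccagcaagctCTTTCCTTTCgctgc
Rpl22: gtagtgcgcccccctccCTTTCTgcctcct
Rpl34: ccccttccttttcctCTTCCggggacggtg
Rpl35a: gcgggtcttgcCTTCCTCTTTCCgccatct
Rps24: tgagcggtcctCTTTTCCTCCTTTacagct
Rps3a: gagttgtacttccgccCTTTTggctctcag

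In GRCr8 these windows lie at chr3:36661925-36661954 on the plus strand (Rpl12), chr10:83519049-83519078 on the plus strand (Rpl19) and chr5:168117946-168117975 on the plus strand (Rpl22). Those of Rpl34 (chr2:221962269-221962298), Rpl35a (chr11:81235007-81235036) and Rps3a (chr2:173827028-173827057) are on the minus strand, and that of Rps24 (chr16:96502-96531) is on the plus strand. Each window is the boundary of the promoter and the first exon. A pair of members whose values are described in detail below had no word at the annotated start, and their windows are shown for contrast.

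Rps27l: gtttattcatttgtcattatttgtggtgtc
Rpl24: gaatttagggaggagattctctaccctata

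The Rps27l window lies at chr8:76443643-76443672 on the plus strand and the Rpl24 window at chr11:58128391-58128420 on the minus strand. A match is a description of these letters, and its absence says only that the letters are not there, since an annotated start can be some bases away from the start used in islets. Other words were counted on either strand over the whole 300 bases. CCGGAAG, the core of an ETS factor site, was in 24.4% of member promoters and 9.2% of all promoters. AAGATGG, the core of a YY1 site, was in 19.5% and 7.3%, and GGGCGG, the core of an Sp1 site, in 58.5% and 34.9%. These words share letters with GC-rich sequence in general and no test was made of the shares.

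Ribosomal protein messages were among the brightest on the arrays. Over the 9 arrays, 36 of the 46 members had a mean log2 value above 10, and all 36 were in the brightest decile of tested probe sets. Their means ran from 10.81 for Rpl21 to 12.94 for Rps29, against a median of 6.61 over all tested probe sets and a highest value in the table of 14.36. The tested members below 10 were Rpl39 at 7.98, the only large subunit member there, and the paralogs Rpl7l1 at 8.25, Rps27l at 7.75, Rps4y2 at 5.95 and Rpl26l1 at 5.72. Brightness of one probe set cannot be set against another's as an amount of RNA, because probes differ in how well they bind.

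The arrays themselves differed between groups in the spread of values and in the actin controls. Whether this bears on these genes was not tested. The standard deviation of log2 values over probe sets was 1.84 to 2.00 on treated arrays, 1.65 to 1.72 on withdrawal arrays and 1.66 to 1.77 on untreated arrays. The actin control probe sets showed a smaller 3′ minus 5′ difference on treated arrays (0.71 to 0.89 log2) than on withdrawal (0.95 to 1.06) or untreated arrays (0.97 to 1.12). For the GAPDH controls the ranges overlapped, at 0.57 to 0.70, 0.56 to 0.87 and 0.65 to 0.86. The labelled tissue was checked against islet genes, and Ins1 and Ins2 had group means of at least 14.11 in every group. Acinar markers were also bright, with list means per array of 13.5 to 13.8 in all 3 groups, so exocrine RNA was present in these islet samples. In such bulk samples, fewer cells of a type and less RNA per cell cannot be told apart.

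The first comparison asks how islets on the drug at 9 weeks differed from untreated islets at 13 weeks. In the values as deposited, ribosomal protein messages were higher in treated islets: by limma with Benjamini-Hochberg adjustment over all 20695 tested probe sets, 25 of 41 members rose, 0 fell and 16 did not pass, whereas after quantile normalization 1 rose and after cyclic loess normalization 1 rose and 1 fell. Among all tested probe sets the shares called were 20.9% higher and 7.24% lower as deposited, and 7.79% higher and 10.7% lower after cyclic loess. The members' median log2 difference was 0.52, with a range of -0.01 to 0.81, and the median over all tested probe sets was 0.16. The values of treated and untreated arrays did not overlap for 34 of 41 members, all higher, where 31.2% of all probe sets were higher and 11.7% lower without overlap. Both subunits took part: 17 of 26 large subunit members (median 0.50) and 7 of 11 small subunit members (median 0.53) rose as deposited.

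Bright probe sets in general were higher on treated arrays as deposited. The 191 other probe sets in the same brightness range had a median difference of 0.51, with 85 higher and 2 lower by the same test, and 2000 other probe sets of the brightest decile had a median of 0.53. A further 35 probe sets carried several symbols including a ribosomal protein name and were not assigned to a gene. Of the 34 of these that were tested, 23 rose and 0 fell, with a median of 0.56. Once all arrays were given the same distribution of values by quantile normalization, the members' median fell to 0.04, and Rps27l was the 1 of 41 called, where 17.2% of all probe sets were called and 11 of the 191 were higher and 21 lower.

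**Figure D1:**
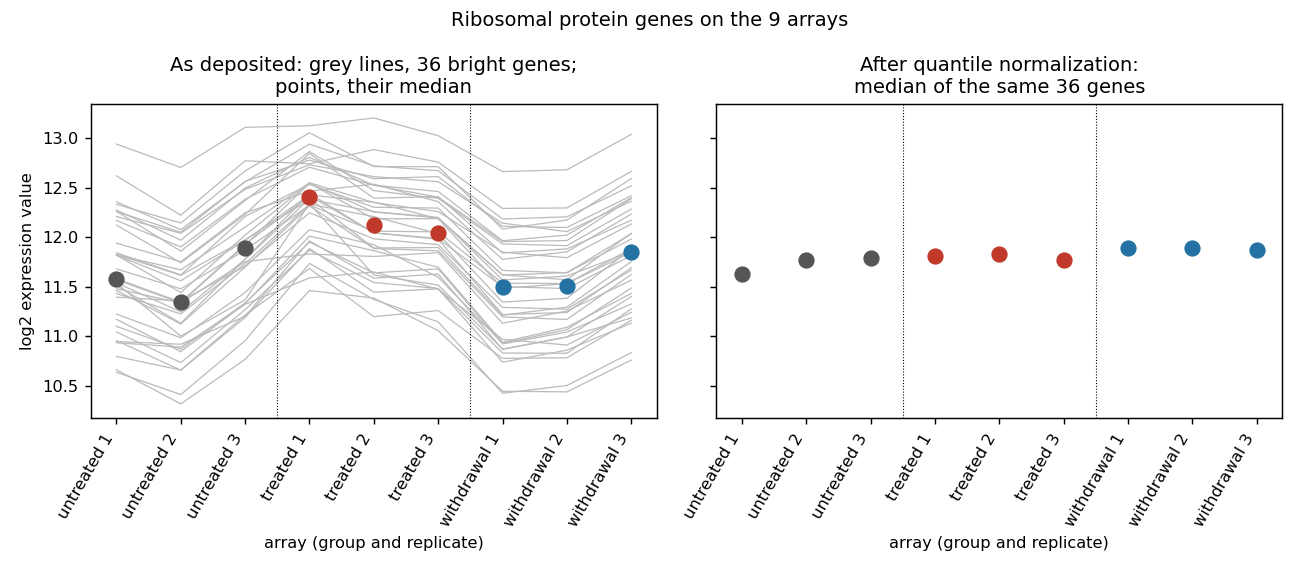
The 36 ribosomal protein genes with a mean log2 above 10 on each of the 9 arrays, in log2 units. As deposited (left, grey line per gene, point for the median) the treated medians of 12.05 to 12.41 lie above the untreated (11.35 to 11.90) and withdrawal medians (11.49 to 11.85). After quantile normalization (right, medians only) the 9 medians run from 11.63 to 11.89 and the treated arrays no longer stand highest. The withdrawal medians (11.87 to 11.89) then lie narrowly above the treated (11.77 to 11.83) and untreated ones (11.63 to 11.79), which was not tested.

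The plot of the 36 genes by array shows that the lines of the members ran nearly parallel as deposited. Arrays of 1 group also differed by a shared amount: untreated replicate 3 and withdrawal replicate 3 were high in their groups and treated replicate 1 was the highest of all. The standard deviation within a group, taken for each of the 36 bright members, had a median of 0.23 as deposited, 0.07 when each array was centred on the median of these members and 0.08 after quantile normalization. The spread between replicates was thus largely common to these members.

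Among small subunit genes, Rps6 encodes the protein that S6 kinase phosphorylates when mTOR is active. Its log2 values were 12.81, 12.53 and 12.46 on treated arrays, 11.96, 12.02 and 12.40 on withdrawal arrays and 12.27, 11.97 and 12.50 on untreated arrays. The highest untreated value lay within the treated range, and the withdrawal values were all below the treated ones. The treated minus untreated difference of 0.35 ± 0.17 (SE, n = 3 per group) did not pass limma's test (adjusted p = 0.14). The withdrawal minus treated difference of -0.47 ± 0.17 did (adjusted p = 0.041), and it was 0.04 after quantile normalization.

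Rps9, a protein at the entrance of the messenger RNA channel, had the largest difference between treated and untreated islets among the 11 tested small subunit members. It was named after its values were seen. Its values were 12.54, 12.19 and 12.19 on treated, 11.49, 11.53 and 11.85 on withdrawal and 11.57, 11.34 and 11.92 on untreated arrays, with every treated array above the others. It rose by 0.70 ± 0.17 in treated against untreated islets as deposited (limma adjusted p = 0.014). After quantile normalization 0 of the 11 small subunit members passed in this comparison, and their highest difference was 0.20.

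Rps29 was the brightest member and among the least different, and it was also named after its values were seen. Treated arrays gave 13.13, 13.20 and 13.03, withdrawal arrays 12.66, 12.68 and 13.04, and untreated arrays 12.94, 12.70 and 13.11. The groups overlapped in every comparison. As deposited the treated minus untreated difference was 0.20 ± 0.15 (limma adjusted p = 0.32). Cyclic loess is meant to remove a shift that depends on brightness over all probe sets. On that scale the same difference was -0.47 ± 0.14 (limma adjusted p = 0.047) and the withdrawal minus treated difference was 0.59 ± 0.14 (limma adjusted p = 0.014). Among the 36 bright members, however, the difference still followed brightness after cyclic loess (Pearson's r -0.80 and 0.84 in the respective comparisons). Rps29 lies at the bright end of that gradient.

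Among large subunit genes, Rpl23a, which sits at the exit of the tunnel through which the new protein leaves, had the smallest p of all members between treated and untreated islets. Its values were 11.96, 11.59 and 11.63 on treated arrays, 10.87, 10.99 and 11.19 on withdrawal arrays and 10.95, 10.92 and 11.20 on untreated arrays. Treated values lay above all others, and the withdrawal and untreated values intermingled. It rose by 0.70 ± 0.15 (SE; limma adjusted p = 0.0071) in treated against untreated islets as deposited, and the difference was 0.18 after quantile normalization (limma adjusted p = 0.27).

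Rpl24, whose reduced dose gives the mouse Belly spot and tail phenotype, behaved alike on these arrays. Treated values were 12.01, 11.86 and 11.70, withdrawal values 10.94, 11.09 and 11.43, and untreated values 11.17, 10.84 and 11.33. No treated value overlapped another group. It rose by 0.74 ± 0.17 as deposited (limma adjusted p = 0.0095) and the difference was 0.23 after quantile normalization (limma adjusted p = 0.12).

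Rpl21 was the dimmest of the 36 bright members. Treated arrays gave 11.46, 11.39 and 11.06, withdrawal arrays 10.45, 10.44 and 10.76, and untreated arrays 10.66, 10.32 and 10.77. Every treated value was above every other. It rose by 0.72 ± 0.16 as deposited (limma adjusted p = 0.0096) and differed by 0.12 after quantile normalization.

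Rpl12, part of the stalk base where translation factors bind, and Rpl35a, one of the proteins affected in Diamond-Blackfan anaemia, both carry the pyrimidine word shown above. Rpl12 measured 12.33, 12.21 and 12.04 on treated, 11.35, 11.38 and 11.88 on withdrawal and 11.43, 11.23 and 11.73 on untreated arrays. Rpl35a measured 11.74, 11.37 and 11.15 on treated, 10.43, 10.50 and 10.83 on withdrawal and 10.64, 10.41 and 10.96 on untreated arrays. In both genes the treated values lay above all others. Rpl12 rose by 0.73 ± 0.18 (limma adjusted p = 0.012) and Rpl35a by 0.75 ± 0.19 (limma adjusted p = 0.014) as deposited, against 0.21 and 0.17 after quantile normalization, where neither passed.

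Rpl5 and Rpl11 travel with 5S ribosomal RNA into the large subunit, and when assembly fails they bind MDM2 and stabilise p53. Rpl5 measured 12.71, 12.53 and 12.40 on treated, 11.96, 11.97 and 12.39 on withdrawal and 12.17, 11.90 and 12.38 on untreated arrays. Rpl11 measured 12.53, 12.30 and 12.29 on treated, 11.67, 11.64 and 12.04 on withdrawal and 11.84, 11.62 and 12.21 on untreated arrays. In both, the lowest treated array was only just above the highest array of the other groups. Rpl11 passed narrowly with 0.49 ± 0.17 (limma adjusted p = 0.0498) and did not pass in 8 of the 9 fits that left out an array, while Rpl5 did not pass with 0.39 ± 0.16 (limma adjusted p = 0.090).

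Rpl13a is also known outside the ribosome, as a part of the GAIT complex that silences inflammatory messages. Its treated values of 12.34, 11.62 and 11.52 were uneven, with replicate 1 far above the others, and its untreated values were 11.53, 11.00 and 11.37. Treated and untreated values overlapped, and the difference of 0.52 ± 0.22 did not pass (limma adjusted p = 0.098). Rpl37a, by contrast, had treated values of 11.83, 11.81 and 11.84 and untreated values of 11.48, 11.34 and 11.75, and its difference of 0.30 ± 0.15 did not pass either (limma adjusted p = 0.14).

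**Figure D2:**
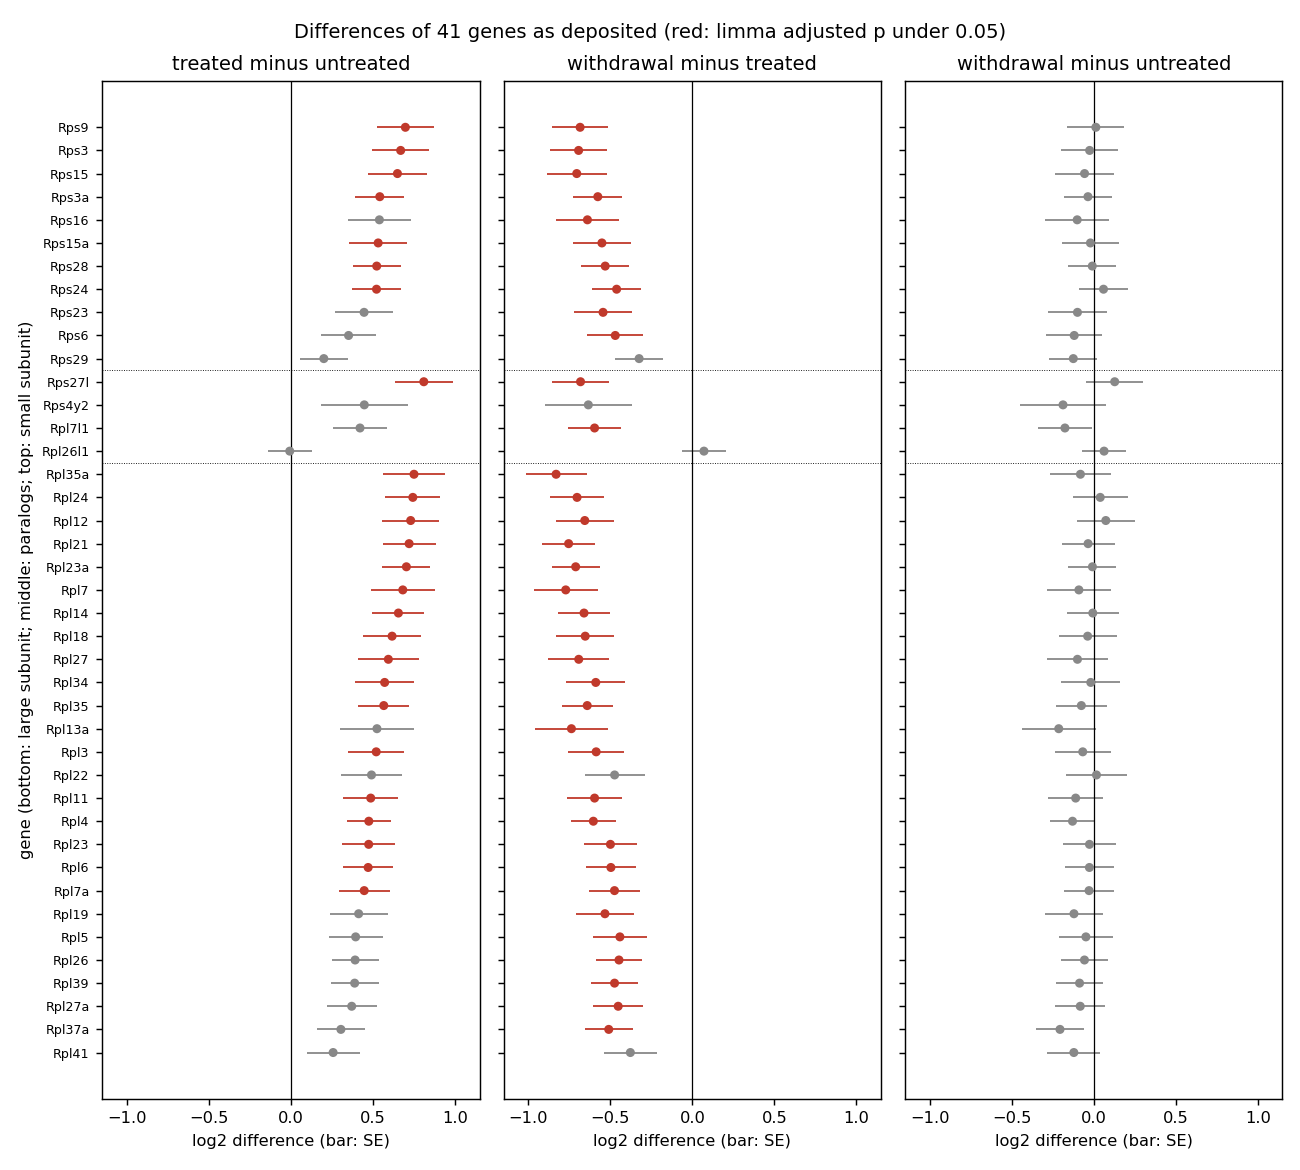
Log2 difference (x axis; bar, limma standard error) of each of the 41 tested ribosomal protein genes (y axis) in the 3 comparisons, as deposited, with red for an adjusted p under 0.05. As deposited, 25 genes were higher in treated than untreated islets, 36 lower after withdrawal than on the drug and 0 different between withdrawal and untreated islets, while after quantile normalization the counts were 1 higher, 1 higher and 0.

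The paralogs differed among themselves in level and in difference. Rps27l, a copy of Rps27 that p53 induces, was the member with the largest difference between treated and untreated islets. Treated arrays gave 8.42, 8.12 and 8.20, withdrawal arrays 7.34, 7.48 and 7.88, and untreated arrays 7.41, 7.18 and 7.72, with no treated value overlapping another group. It rose by 0.81 ± 0.18 in treated against untreated islets as deposited (limma adjusted p = 0.0084). It was the 1 member called in this comparison as deposited and also under both quantile normalization (0.51 ± 0.15, limma adjusted p = 0.037) and cyclic loess (0.50 ± 0.14, limma adjusted p = 0.031). When each array was centred on the bright members the difference was 0.23 ± 0.17 (limma adjusted p = 0.29), so Rps27l was not shown to differ from the rest of the family. Its parent gene Rps27 was not analysed here.

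Rpl26l1, a close copy of Rpl26, measured 5.90, 5.49 and 5.69 on treated, 5.71, 5.91 and 5.67 on withdrawal and 5.71, 5.75 and 5.64 on untreated arrays. The groups overlapped fully, and the treated minus untreated difference was -0.01 ± 0.13. With each array centred on the bright members, Rpl26l1 was the 1 member called. It gave -0.59 ± 0.21 in treated against untreated islets (limma adjusted p = 0.038) and 0.64 ± 0.21 in withdrawal against treated islets (limma adjusted p = 0.027). Centring subtracts the shift of the bright members, so these values were largely set by that step and do not show a change of Rpl26l1. Of all probe sets, 38.1% and 36.8% were called on that scale. In treated against untreated islets 142 were higher and 7751 lower, and in withdrawal against treated islets 7359 were higher and 251 lower. The Rpl26l1 probe set is dim, close above the filter at a mean of 4.95. Rpl26 itself measured 12.73, 12.61 and 12.56 on treated and 12.21, 12.04 and 12.48 on untreated arrays, a difference of 0.39 ± 0.14 that did not pass (limma adjusted p = 0.059).

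Rps4y2, named as a Y-linked copy of Rps4x but placed on chromosome 4 in GRCr8, had 1 array apart: 7.10 on treated replicate 1 against 5.94 and 5.89 on the other treated arrays. Withdrawal arrays gave 5.65, 5.51 and 5.86 and untreated arrays 5.94, 5.66 and 5.98. The difference of 0.45 ± 0.26 between treated and untreated islets (limma adjusted p = 0.22) was 0.05 without treated replicate 1. Rpl7l1, a nucleolar relative of Rpl7 that acts in ribosome assembly, measured 8.79, 8.47 and 8.50 on treated, 7.83, 7.90 and 8.24 on withdrawal and 8.31, 7.89 and 8.29 on untreated arrays. Its treated values lay above the others, and the difference from untreated islets of 0.42 ± 0.16 did not pass (limma adjusted p = 0.070).

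**Figure D3:**
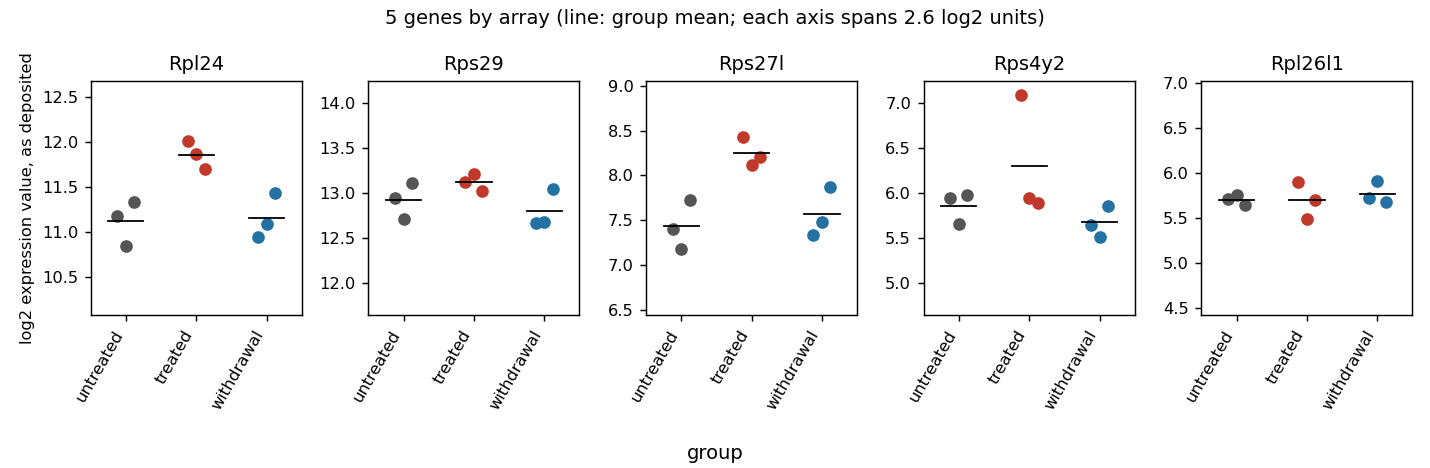
Log2 values as deposited (y axis, a span of 2.6 log2 units in each panel) of 5 ribosomal protein genes on each array by group, with a line at the group mean. Rpl24 and Rps27l were higher on all treated arrays, by 0.74 and 0.81 against untreated arrays as deposited and by 0.23 and 0.51 after quantile normalization, while Rps29 overlapped, Rps4y2 was high on 1 treated array (7.10) and Rpl26l1 did not differ (-0.01).

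A second probe set was present for 5 members. For Rpl7 it was dimmer (mean 7.06 against 11.67) and differed in the same direction, by 1.08 in treated against untreated islets (limma adjusted p = 0.0018, fitted with no filter), where the brighter probe set differed by 0.68. For Rpl3 and Rpl7l1 the second probe sets gave 0.28 and 0.31 and did not pass, and for Rpl14 and Rps24 they were below the filter and gave -0.17 and -0.25.

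The second comparison asks what was seen 2 weeks after the drug ended. As deposited, ribosomal protein messages were lower in withdrawal than in treated islets: 36 of 41 members fell and 0 rose by limma's adjusted test, whereas 1 rose and 0 fell after quantile normalization, and 14 rose and 0 fell after cyclic loess. The shares of all tested probe sets called were 32.6% lower and 11.2% higher as deposited, and 12.7% lower and 15.8% higher after cyclic loess. The members' median was -0.59, with a range of -0.83 to 0.07, against -0.19 over all tested probe sets. Withdrawal values lay below treated values without overlap in 39 of 41 members, where 39% of all probe sets were lower and 14.9% higher without overlap. As deposited, 24 of 26 large subunit members and 10 of 11 small subunit members fell.

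The members with the smallest p in this comparison were Rpl23a, Rpl21, Rpl35a and Rpl4. As deposited they fell by 0.71 ± 0.15 (limma adjusted p = 0.0033), 0.75 ± 0.16 (limma adjusted p = 0.0040), 0.83 ± 0.19 and 0.60 ± 0.14 (limma adjusted p = 0.0049 for both). After quantile normalization the same differences were 0.03, 0.06, -0.04 and 0.07. Rpl4, a protein that lines the exit tunnel, measured 12.38, 12.26 and 12.20 on treated arrays and 11.57, 11.61 and 11.85 on withdrawal arrays, with no overlap. The members that did not pass as deposited were Rpl22 (-0.47), Rpl41 (-0.38), Rps29 (-0.32), Rps4y2 (-0.63) and Rpl26l1 (0.07).

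The 191 other probe sets of like brightness had a median of -0.75 in this comparison, with 154 lower and 1 higher, beside the members' -0.59. In each array, the median of the 36 bright members stood above the median of those 191 probe sets. The gap was 0.40 to 0.53 on treated arrays, 0.60 to 0.68 on withdrawal arrays and 0.21 to 0.48 on untreated arrays. The withdrawal gaps were the widest and did not overlap with those of the other groups. This measure was set up after the values were seen and was not tested.

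Under both normalizations the members' median between withdrawal and treated islets turned from below to above 0. After quantile normalization the members' median was 0.04 and the 1 member called was Rpl22, which was higher in withdrawal islets by 0.31 ± 0.10 (limma adjusted p = 0.045), where 29.1% of all probe sets were called. Rpl22 carries the word CTTTC at its start and measured 11.68, 11.20 and 11.26 on treated, 10.78, 10.78 and 11.16 on withdrawal and 10.80, 10.66 and 11.22 on untreated arrays as deposited. After cyclic loess the median was 0.27. The 14 members then higher in withdrawal islets included Rps29 (0.59), Rpl41 (0.52), Rpl5 (0.44), Rpl26 (0.44), Rpl27a (0.44), Rpl7a (0.42), Rps6 (0.42) and Rps24 (0.41), and none was lower. Of the 191 probe sets of like brightness, 35 were higher and 5 lower on that scale, with a median of 0.08.

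**Figure D4:**
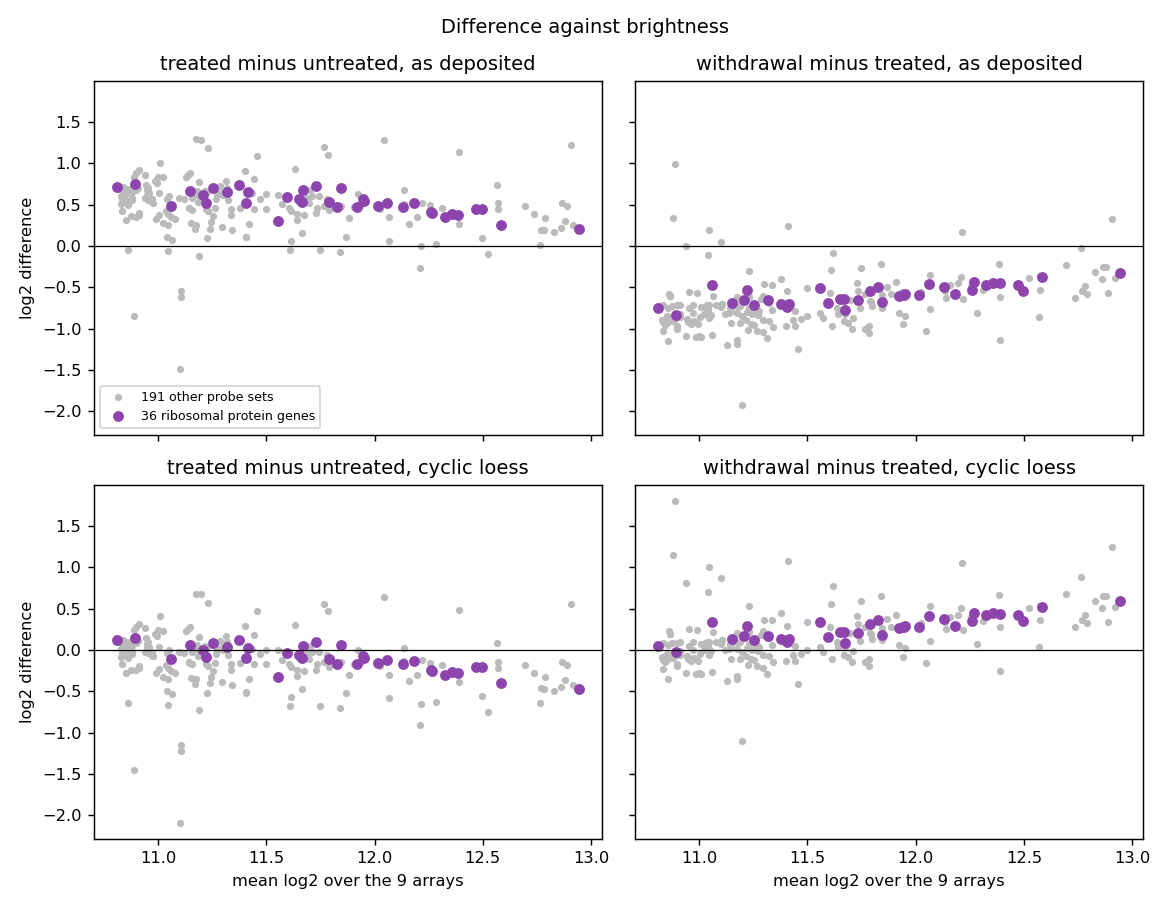
Log2 difference (y axis) against mean log2 over the 9 arrays (x axis) for the 36 bright ribosomal protein genes (purple) and 191 other probe sets of like brightness (grey), as deposited (top) and after cyclic loess (bottom). As deposited the dimmest 12 of these genes differed by a median of 0.65 in treated against untreated islets and the brightest 12 by 0.40, and for withdrawal against treated islets by -0.70 and -0.47, while after cyclic loess the medians were 0.03 and -0.25, and 0.14 and 0.42.

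Within the family, the difference followed brightness as deposited and after cyclic loess, as the plot of difference against brightness shows. Over the 36 bright members, Pearson's r between mean log2 and the treated minus untreated difference was -0.75 as deposited and -0.80 after cyclic loess. For withdrawal minus treated it was 0.75 and 0.84. The gradient was weaker after quantile normalization, with r of -0.47 for treated minus untreated and -0.17 for withdrawal minus treated. These values describe genes that share the same 9 arrays, and genes are not independent replicates. The insulin genes, near the top of the scale, gave 0.03 (Ins1) and 0.12 (Ins2) in treated against untreated islets. The part of the scale's upper end in this gradient was not tested.

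The third comparison sets islets after withdrawal against islets that never saw the drug. No member was called by limma: 0 of 41 passed the adjusted threshold and 0 had an unadjusted p under 0.05, where 0.00483% of all probe sets were called higher and 0.155% lower. The members' median was -0.06, with a range of -0.21 for Rpl13a to 0.13 for Rps27l, and the standard errors of single genes had a median of 0.17. Values overlapped in all 41 members, where 7.65% of probe sets were higher and 10.3% lower without overlap. The members with the smallest p were Rpl37a (-0.21 ± 0.15), Rpl7l1 (-0.18 ± 0.16), Rpl4 (-0.13 ± 0.14) and Rpl13a (-0.21 ± 0.22), with limma adjusted p from 0.82 to 0.89. A p that misses the threshold does not show that the groups were alike.

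After quantile normalization the median was 0.08, with 0 members called and 3 at an unadjusted p under 0.05, where 0.42% of all probe sets were called. After cyclic loess it was 0.17, with 0 called and 4 at an unadjusted p under 0.05, where 0.0338% of all probe sets were called higher and 0.237% lower. The 191 probe sets of like brightness had a median of -0.24 as deposited, and -0.03 and -0.02 after the respective normalizations. The withdrawal and treated comparisons share arrays with this one, so the 3 sets of values are not independent of each other.

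Across the 3 groups at once, limma's moderated F test called 31 of 41 members as deposited, where 37% of all tested probe sets were called. It called 0 members after quantile normalization (3 at an unadjusted p under 0.05), 7 after cyclic loess and 1 when arrays were centred on the bright members, where 24.5%, 23.4% and 35.3% of all probe sets were called. Such centring gives the bright members the same median on every array, so its low count was largely set by that step.

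Single arrays decided how many members passed. Between treated and untreated islets the count of 25 became 4 without untreated replicate 2, 9 without untreated replicate 1 and up to 30 in the other fits. Between withdrawal and treated islets the count of 36 became 13 without withdrawal replicate 1 and 13 without withdrawal replicate 2. Rpl23a, Rps27l, Rpl24 and Rpl21 passed in both comparisons in each of the 9 fits that left out an array, with a highest limma adjusted p of 0.0498 for Rpl24 between treated and untreated islets.

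Counts for gene lists of the pathway stand beside the same shares of all tested probe sets: 20.9% higher in treated than untreated islets and 32.6% lower in withdrawal than treated islets as deposited, and 17.2% and 29.1% called in either direction after quantile normalization. Ribosomal proteins with other names were described from a fixed list. Only 3 of its 7 genes had a probe set with 1 symbol: Rplp0, the base of the acidic stalk, Rpsa, which is also known as the laminin receptor, and Rack1, a signalling scaffold on the small subunit. As deposited, Rplp0 (0.68 ± 0.16, limma adjusted p = 0.013) and Rpsa (0.46 ± 0.12, limma adjusted p = 0.019) rose in treated against untreated islets, and Rack1 differed by 0.50 ± 0.17 (limma adjusted p = 0.050). All 3 fell in withdrawal against treated islets, and 0 of 3 passed limma's adjusted test in either comparison after quantile normalization, with 1 at an unadjusted p under 0.05 in each.

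The elongation factor list held 8 genes, among them the kinase gene Eef2k. As deposited, 3 rose in treated against untreated islets (37.5%, beside 20.9% of all probe sets) and 5 fell in withdrawal against treated islets (62.5%, beside 32.6%). Between treated and untreated islets Eef1b2 rose by 0.71 and Eef1d by 0.73. The very bright Eef1a1 (mean 13.13 on treated arrays) differed by 0.25 and Eef2 by 0.27, which did not pass. After quantile normalization 0 of 8 passed limma's adjusted test in either comparison, and 0 and 1 had an unadjusted p under 0.05. The list's median was 0.36 as deposited and -0.09 after quantile normalization.

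Initiation factors load the small subunit onto the message. As deposited 22 of 29 rose in treated against untreated islets (75.9%, beside 20.9% of all probe sets; median 0.58) and 28 of 29 fell in withdrawal against treated islets (96.6%, beside 32.6%; median -0.69). After quantile normalization the shares called were 3.45% and 10.3%, below the 17.2% and 29.1% of all probe sets, and the medians were 0.08 and -0.11. The 1 that then rose was Eif3j, a loosely bound part of eIF3 (0.37, limma adjusted p = 0.035). The 3 that fell in withdrawal against treated islets were the eIF3 scaffold Eif3a (-0.36), the helicase Eif4a2 (-0.36) and Eif2b1 (-0.38), a part of the exchange factor for eIF2. Of 8 other genes with a known pyrimidine run at the 5′ end, 4 rose (50%) and 5 fell (62.5%) as deposited in these comparisons, beside 20.9% and 32.6% of all probe sets. Of these, Eef1a1 and Eef2 are also in the elongation factor list. As drawn up, the list also shared genes with those of initiation and ribosome biogenesis factors, so these lists are not separate sets. After quantile normalization 1 rose, Hnrnpa1, an RNA-binding protein (0.52), and 0 fell, with 2 at an unadjusted p under 0.05 in withdrawal against treated islets by limma.

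Ribosome biogenesis factors, which make and fold ribosomal RNA in the nucleolus, also held calls after quantile normalization. Of 45 tested genes 20 rose in treated against untreated islets as deposited (44.4%, beside 20.9% of all probe sets; median 0.46) and 9 rose after quantile normalization (median 0.22), with 0 lower on either scale. In withdrawal against treated islets 28 fell as deposited (62.2%, beside 32.6%; median -0.53) and 16 fell after quantile normalization (median -0.25), with 0 higher. The quantile shares of 20% and 35.6% of the list stand beside 17.2% and 29.1% of all tested probe sets. They were not set against the ribosomal protein genes by a test.

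Within that list, the nucleolar GTPase Gnl2, which acts on the large subunit before export, rose by 0.70 as deposited and 0.65 after quantile normalization (limma adjusted p = 0.0054). The helicase Ddx21, which couples RNA polymerase I to processing, rose by 0.88 and 0.69 (limma adjusted p = 0.0076 after quantile normalization). Gar1, a protein of the pseudouridine guide particles, rose by 0.76 and 0.69 (limma adjusted p = 0.0029 after quantile normalization). In withdrawal against treated islets, Gnl2 differed by -0.81, Ddx21 by -0.68 and Ubtf, the factor that opens ribosomal DNA for RNA polymerase I, by -0.56 after quantile normalization. All 3 passed limma's adjusted test there. These genes are dimmer than the ribosomal protein genes, with treated means of 6.41 for Gnl2 and 7.49 for Ddx21.

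**Figure D5:**
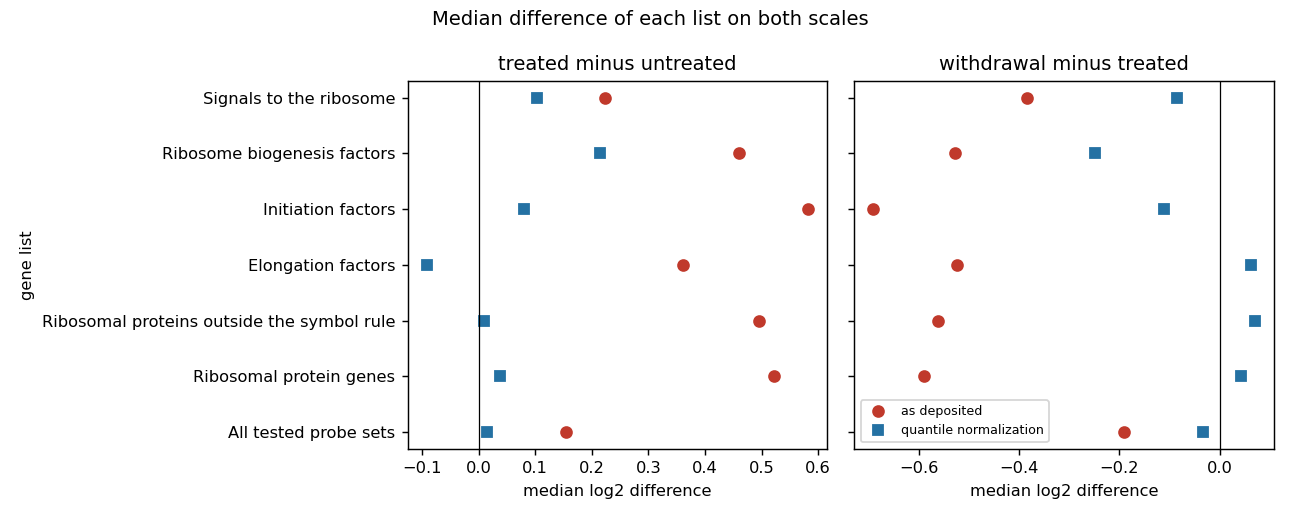
Median log2 difference (x axis) of each gene list (y axis) in treated against untreated (left) and withdrawal against treated islets (right), as deposited (circles) and after quantile normalization (squares). The median of ribosomal protein genes went from 0.52 to 0.04 and from -0.59 to 0.04 between the scales, and that of biogenesis factors from 0.46 to 0.22 and from -0.53 to -0.25.

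Among 18 tested genes for signals to the ribosome the shares called were close to those of all probe sets as deposited and below them after quantile normalization: 27.8% rose and 38.9% fell as deposited in the respective comparisons, beside 20.9% and 32.6%, and 5.56% and 11.1% were called after quantile normalization, beside 17.2% and 29.1%. The 5 that rose in treated against untreated islets as deposited were Rheb, the GTPase that switches on mTOR complex 1 (0.79), Max (0.72), its partner Myc (0.71), Eif4ebp1 (0.58), which mTOR phosphorylates to release the cap-binding factor, and Larp1 (0.47). Mtor itself differed by 0.21 and Rps6kb1 by 0.18, and neither passed. After quantile normalization Myc alone passed (0.42, limma adjusted p = 0.042). In withdrawal against treated islets 7 fell as deposited. After quantile normalization Tsc1, an inhibitor of Rheb, was lower by -0.45 and Sp1 higher by 0.36. Messenger RNA levels of these genes are not a measure of mTOR activity.

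Some markers of the cell types in the samples moved with the ribosomal protein genes as deposited. Their counts stand beside the shares of all tested probe sets. As deposited, 20.9% were higher and 7.24% lower in treated than untreated islets. In withdrawal against treated islets 32.6% were lower and 11.2% higher. After quantile normalization 17.2% and 29.1% were called in either direction in the respective comparisons. Of 8 beta cell markers measured, 4 rose in treated against untreated islets as deposited (Pdx1, Nkx6-1, Slc2a2 and Ero1b) and 5 fell in withdrawal against treated islets. The list mean per array was 11.91 to 12.06 on treated, 11.18 to 11.40 on withdrawal and 11.32 to 11.61 on untreated arrays. T cell markers ran the other way, with 3 of 7 lower in treated than untreated islets and 5 of 7 higher in withdrawal than treated islets, and list means of 5.49 to 5.68, 6.03 to 6.28 and 5.90 to 6.04. After quantile normalization the beta cell counts were 0 (3 at an unadjusted limma p under 0.05) and 3, and the T cell counts were again 3 and 5. Of 10 acinar markers, 1 (Amy2a3) was higher in treated than untreated islets and 0 passed between withdrawal and treated islets by limma, adjusted or unadjusted. Of 8 stellate cell markers 0 passed as deposited in either comparison, adjusted or unadjusted, whereas 2 were lower in treated than untreated islets and 6 higher in withdrawal than treated islets after quantile normalization. Macrophage list means ran from 7.0 to 8.65 on treated, 8.06 to 8.25 on withdrawal and 7.54 to 7.73 on untreated arrays. Of 9 macrophage markers, 1 was higher in withdrawal than treated islets as deposited and 4 after quantile normalization (median 0.74, 9 of 9 above 0), and 1 was lower in treated than untreated islets on both scales.

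Among hormone genes of the other islet cells, Ppy and Sst were called in both comparisons, in the same directions as most ribosomal protein genes as deposited, and were called in those directions after quantile normalization too. Ppy, the hormone of PP cells, ran from 13.12 to 13.20 on treated, 11.49 to 12.48 on withdrawal and 11.96 to 12.08 on untreated arrays, with no treated value overlapping. It rose by 1.14 in treated against untreated islets (limma adjusted p = 0.0033) and fell by 1.14 in withdrawal against treated islets, and the differences were 0.77 and -0.65 after quantile normalization. Sst, the somatostatin gene of delta cells, rose by 1.29 (limma adjusted p = 0.0013) and fell by 1.93, with 0.77 and -1.21 after quantile normalization, while Hhex, the other delta cell gene, was not called. The delta cell list mean was 9.75 to 10.31 on treated, 8.80 to 9.06 on withdrawal and 8.99 to 9.47 on untreated arrays. Gcg, the glucagon gene of alpha cells, differed by 0.42 in treated against untreated islets (limma adjusted p = 0.058) and fell by 0.76 in withdrawal against treated islets. The 3 alpha cell markers measured ran from -0.07 to 0.42 and from -0.76 to 0.12 in these comparisons. After quantile normalization 1 of the 3 was called lower in treated than untreated islets. Between withdrawal and treated islets 1 was then called higher and 1 lower. Duct, endothelial and Schwann cell lists had 2 to 6 measured genes each, with at most 1 called in each direction per comparison as deposited. The part of cell makeup, array spread and the actin 3′ to 5′ difference in the shift of the ribosomal protein genes was not tested.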

How the data were processed

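The deposited table has 31099 probe sets, 57 of them controls. Its values were taken as the authors' log2 expression because they reached no higher than 14.36. The submitters' processing notes name RMA and MAS5, whose roles and versions are not given in the sources used here. Of the other probe sets, 20826 had 1 symbol in the platform annotation, 436 several and 9780 none listed, and 44 members matched RefSeq by gene number. The dimmest 33.3% by mean log2 were left out, which left 20695.

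One limma (3.58.1, R 4.3.3) model with group means over the 9 arrays was used, with Benjamini-Hochberg adjusted p under 0.05 over all tested probe sets. P-values measure the spread between these arrays, and their number limits precision. Alternatives were other scalings (quantile, cyclic loess, array median, centring on bright members), filters, priors, array weights, a replicate block and leaving out each array. The members named were the 4 with the smallest p per comparison, the 2 furthest against the members' direction, and a fixed set (Rps6, Rpl5, Rpl11, Rpl13a, Rpl24, the paralogs and their parent genes); Rps9, Rps29 and those listed by a call were named after their values were seen. Members and lists were chosen with earlier results of these data known, and lists were described by counts and medians only. The fit was tested on simulated data. Protein sequences were not used here. Plots were made in matplotlib 3.10.9 (Python 3.11.15).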

Additional observations from a re-analysis of the deposited data

How the results depend on the processing

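Quantile normalization and cyclic loess removed or turned the family's difference, while array median centring kept it. With 3 arrays per group a single array decides how many members pass. After array median centring 25 members rose between treated and untreated islets (median 0.53; 29.2% of all probe sets called). Between withdrawal and treated islets 37 then fell (median -0.62; 46% of all called), and the F test called 32 (8087 of all 20695). Between treated and untreated islets the 25 ribosomal protein genes called became 1 after quantile normalization, 2 after cyclic loess, 15 with a trended and robust prior, 14 with only the 6 arrays compared, 1 centred on bright members and 1 with quantile normalization without treated replicate 1. Leaving out each array gave 4 to 30. Their median of 0.52 became 0.0381 (quantile), -0.0914 (loess), -0.0628 (centred) and 0.0427 (quantile without treated replicate 1), with 0.38 to 0.64 when an array was left out. With array weights, where treated replicate 1 had the lowest weight (0.163), 17 were called and the median was 0.3425. Between withdrawal and treated islets the 36 called became 1, 14, 1 and 1 under the same scalings in that order (13 to 39 when an array was left out), and the median of -0.59 became 0.0424, 0.27, -0.0143 and 0.0371 (-0.70 to -0.49). The F test's 31 became 0, 7, 1 and 0, and 19 with the trended and robust prior (14 to 34). Centring on bright members gives them the same median on every array. The small medians and few members called on that scale were thus largely set by that step. Between withdrawal and untreated islets 0 members passed under every alternative run, and the median ran from -0.19 to 0.06 when an array was left out.

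Over all probe sets, the 5817 called between treated and untreated islets became 3558 (quantile), 3821 (loess) and 3209 (6 arrays), with 2033 to 6319 when an array was left out; the split of 4318 higher and 1499 lower became 1604 and 1954 after quantile normalization. Between withdrawal and treated islets 9057 became 6032 and 5900 (5587 to 9511), and 2312 higher and 6745 lower became 3011 and 3021. Between withdrawal and untreated islets 33 became 87 (quantile), 56 (loess), 3275 (array weights), 494 (6 arrays), 50 (replicate block) and 409 (quantile without treated replicate 1), with 7 to 398 when an array was left out.

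After quantile normalization Rpl4 turned to -0.0465 between treated and untreated islets. Between withdrawal and treated islets Rpl23a gave 0.0301, Rpl24 0.0231, Rpl21 0.0582, Rpl37a 0.21, Rpl4 0.0662, Rpl13a 0.0015, Rpl12 0.0424, Rps6 0.0409, Rpl5 0.10, Rpl11 0.0325, Rpl22 0.31 and Rpl26 0.0684. After cyclic loess Rpl4 gave -0.17, Rpl11 -0.16 and Rpl3 -0.13 between treated and untreated islets. Between withdrawal and treated islets Rpl23a then gave 0.12, Rpl24 0.13, Rpl21 0.0476, Rpl37a 0.34, Rpl4 0.27, Rpl13a 0.10, Rpl12 0.20, Rps6 0.42, Rpl5 0.44, Rpl11 0.28, Rpl3 0.30, Rpl7 0.0836, Rpl22 0.34 and Rpl26 0.44. The cause of these turns was not tested.

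The labels give the groups the same replicate numbers. Deviations of same-numbered arrays correlated from -0.28 to 0.50, so the numbers were not taken to pair the arrays, and 3 of 9 arrays correlated best with their own number. With the replicate number as a block, 28 members passed between treated and untreated islets, 38 between withdrawal and treated islets and 33 by the F test. Offsets for linear values were not run, since the values are on a log scale. Centring on bright members, the bright members alone and quantile normalization without treated replicate 1 were chosen after seeing the data.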
